A study of Mus musculus with 2 samples.

Results

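Aquaporins are membrane channels that let water, and in some members glycerol, cross the cell surface. The 10 aquaporin genes Aqp1, Aqp2, Aqp3, Aqp4, Aqp5, Aqp6, Aqp7, Aqp8, Aqp9 and Aqp11 were taken by gene symbol from the gene and transcript tables, out of 43346 mouse gene identifiers, and they hold 25 transcripts. The rule is by name and has no threshold on a measured value. Polyadenylated RNA came from adipose tissue of an adult male C57BL/6J mouse aged 10 weeks, and the labels name no fat depot, genotype change or treatment. This 1 biosample was sequenced as 2 technical libraries, and library 2 was made later, after the publication that the labels name. There is a single group and no replicate animal, so each SD below is the technical spread between 2 libraries, and library and date cannot be told apart.

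The family falls into classes by what passes through the pore. Aqp1, Aqp2, Aqp4 and Aqp5 are water channels, found in mammals in vessel and red cell membranes, kidney collecting duct, brain and muscle, and exocrine glands respectively. Aqp3, Aqp7 and Aqp9 also carry glycerol and are called aquaglyceroporins. In fat cells Aqp7 is the known exit for glycerol set free when triglyceride is broken down, and in liver Aqp9 takes glycerol up. Aqp9 is also known in the lining of the epididymal duct, where water is drawn from the fluid around maturing sperm.

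Depth was 19954825 rounded expected counts in library 1 and 19256764 in library 2 over the genes with any count, and intervals given here cover counting error only. Mitochondrial genes and their nuclear copies took 51.7% of TPM (a level scaled for transcript length and library depth) in library 1 and 15.9% in library 2, which lowers every other TPM more in library 1. A gene was called at an adjusted p under 0.05 (exact binomial test) and at least a 2-fold difference between the libraries. Library 2 was the higher one for 30.1% of the 18275 tested genes by this rule and the lower one for 18.4%. The ratio moved with the GC content of the transcripts over all genes, and with this trend removed (GC-adjusted) the shares were 11.2% and 9.98%. Counts of calls in each gene list are to be read against these shares.

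The labelled tissue was checked by its markers. Each of the 10 adipocyte markers reached 1 TPM in both libraries, led by Fabp4, Lpl and Adipoq. Of these 10, 4 were called higher and 2 lower in library 2, where all genes had 30.1% and 18.4%. GC-adjusted, 4 were higher and 0 lower, beside 11.2% and 9.98% over all genes. The 12 markers of epididymal principal cells also each reached 1 TPM in both libraries. Their medians were 3027 and 3584 TPM, against 119 and 738 TPM for the adipocyte list. RNA of genes known from that duct thus stood beside RNA of fat cell genes. In bulk tissue fewer cells of a type and less RNA per cell cannot be told apart.

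The start regions of the 3 most abundant members are printed first, because Aqp7, Aqp1 and Aqp9 held most of the family's RNA and the forms of Aqp7 differ by where they start. Each is 250 bases before to 50 after a RefSeq start in build GRCm38.p6. The Aqp7 window, at the start of the longer form Aqp7-201 described below, is chr4:41048087-41048386 on the minus strand, that of Aqp1 chr6:55336049-55336348 on the plus strand, and that of Aqp9 chr9:71163240-71163539 on the minus strand. The Aqp1 window ends before the annotated start of Aqp1-201, the only counted form of that gene, at 55336432. Capitals mark exact matches, on either strand, to any of 4 short words, none of which overlap in these windows. The first word, AGGTCA, is the core site of many nuclear receptors, among them the fat cell factor Pparg with its partner. The second is AGAACA, the core site shared by the androgen and glucocorticoid receptors. The third is GGGCGG, the GC box bound by the general factor Sp1. The last is TATAAA, the TATA box, at which the start of some genes is set.
Aqp7: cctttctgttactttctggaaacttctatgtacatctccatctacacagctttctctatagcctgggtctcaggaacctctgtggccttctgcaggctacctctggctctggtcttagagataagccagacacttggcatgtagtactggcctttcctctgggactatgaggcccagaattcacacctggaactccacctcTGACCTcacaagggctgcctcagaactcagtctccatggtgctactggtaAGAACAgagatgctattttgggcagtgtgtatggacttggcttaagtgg
Aqp1: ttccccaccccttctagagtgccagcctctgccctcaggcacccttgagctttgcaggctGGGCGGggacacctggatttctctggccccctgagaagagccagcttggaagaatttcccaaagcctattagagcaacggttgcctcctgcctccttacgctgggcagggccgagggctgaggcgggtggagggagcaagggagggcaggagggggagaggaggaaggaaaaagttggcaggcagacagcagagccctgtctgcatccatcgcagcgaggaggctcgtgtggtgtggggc
Aqp9: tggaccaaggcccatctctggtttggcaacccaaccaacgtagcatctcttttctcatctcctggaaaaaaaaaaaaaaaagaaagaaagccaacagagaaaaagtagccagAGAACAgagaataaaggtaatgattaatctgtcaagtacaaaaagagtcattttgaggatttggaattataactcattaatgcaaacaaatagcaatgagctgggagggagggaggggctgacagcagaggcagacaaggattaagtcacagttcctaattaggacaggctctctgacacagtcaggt

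The Aqp7 window held 1 match to the nuclear receptor core site and 1 to the androgen and glucocorticoid receptor core site, the Aqp1 window 1 GC box, and the Aqp9 window 1 androgen and glucocorticoid receptor core site. No window held a TATA box. Over 32851 RefSeq start windows of the same length, 16.3% held the nuclear receptor word, 19% the androgen and glucocorticoid receptor word, 35.7% the GC box and 13.6% the TATA box. These words are common, so a match describes the letters and no binding. GC content was 62.7% in the Aqp1 window, 49.7% in the Aqp7 window and 41.3% in the Aqp9 window.

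Aqp1, Aqp9 and Aqp7 carried the aquaporin RNA of this tissue. Together they made up 92.9% of the family's summed TPM in library 1 and 91.8% in library 2, where the sums were 109 and 305 TPM. Of the 10 members, 5 reached 1 TPM in both libraries, 4 were under 1 TPM in both, and 1, Aqp5, crossed that level. The highest order by mean was Aqp1, Aqp9, Aqp7, Aqp11 and Aqp6. The library ranges of Aqp9, Aqp7, Aqp11 and Aqp6 did not overlap each other, whereas Aqp1 overlapped both Aqp9 and Aqp7, and Aqp6 overlapped Aqp5. Below Aqp6, neighbours in the order overlapped throughout. The lens channel gene Mip and the pancreatic Aqp12 had 0 counts in both libraries, which allows up to 0.114 TPM of Mip and 0.248 TPM of Aqp12 in library 2 at a floor of 3 counts.

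**Figure D1:**
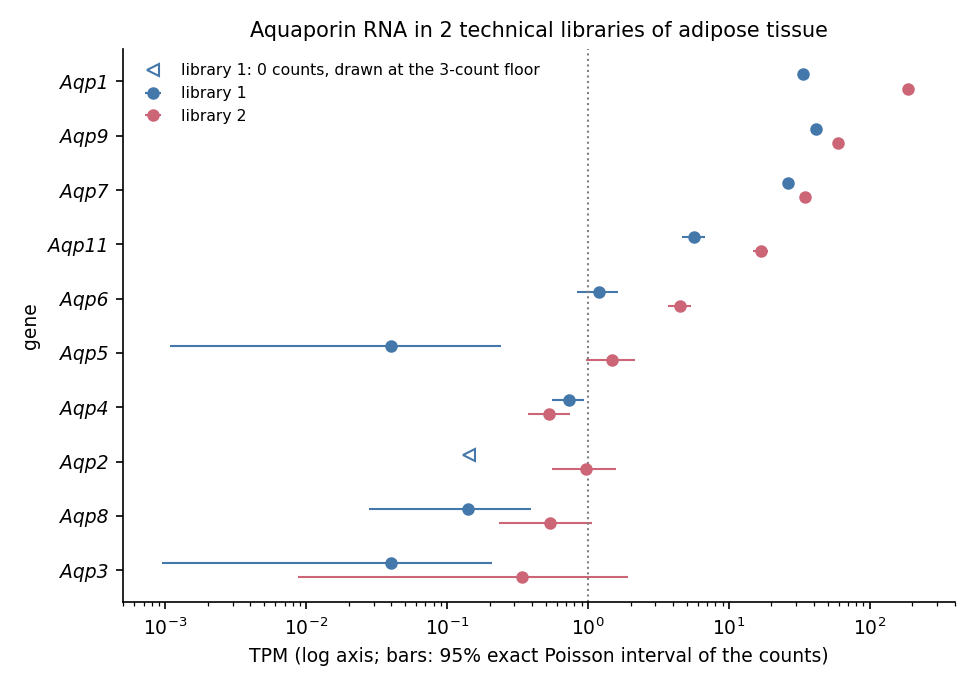
TPM of the 10 aquaporins (log axis), 1 point per library, with 95% exact Poisson intervals of the counts. The triangle stands for 0 counts of Aqp2 in library 1, drawn at the floor of 3 counts (0.143 TPM). Aqp1, Aqp9, Aqp7, Aqp11 and Aqp6 lie right of the dotted line at 1 TPM in both libraries.

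Among the water channels, Aqp1 was the most abundant. Aqp1 (ENSMUSG00000004655, chromosome 6, 55336432 to 55348555, mm10, plus strand) stood at 33.4 TPM in library 1 (1392 counts) and 185 TPM in library 2 (6062 counts), a mean of 109 ± 108 TPM (SD, n = 2). Library 2 was the high one, and the counting intervals of 31.6 to 35.2 and 181 to 190 TPM did not overlap. At these levels Aqp1 exceeded 89.03% of protein-coding genes in library 1 and 96.99% in library 2. The library ratio on scaled counts of library 2 over library 1 was 1.74 in log2 (95% exact interval 1.65 to 1.82), and Aqp1 was called higher. Over all tested genes 30.1% were called higher.

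Genes of cells known to carry Aqp1 were measured beside it. Each of the 10 blood endothelial markers, genes of the vessel lining, reached 1 TPM in both libraries, and their summed level was 133 and 399.5 TPM. Pecam1, at 23.7 and 54.2 TPM, was not called. Of these 10, 6 were called higher in library 2, among them Cdh5 (16.1 and 55.9 TPM) and Egfl7 (13.4 and 95.7 TPM), and 1, Emcn, lower. GC-adjusted, 2 were called higher and 0 lower, the list median went from 1.75 to 0.39, and Cdh5 turned from 1.06 to -0.15. The shares over all genes were 30.1% and 18.4% before that adjustment. The erythroid list summed to 372 and 4286 TPM, nearly all from globin genes. Hba-a2, Hbb-bs and Hba-a1 led it, at means of 936, 769 and 443 TPM, and as they share reads they are uncertain. Of 6 tested erythroid genes, 5 were called higher in library 2 and 0 lower. GC-adjusted, 3 were called higher, all globin genes with shared reads, and 0 lower, where all genes had 11.2% and 9.98%. The list median went from 2.92 to 2.21. Slc4a1 (the red cell anion exchanger), Epb42 and Rhag were at 0.17 TPM or less in both libraries, whereas Alas2, the first enzyme of heme synthesis in red cell precursors, was at 4.2 and 12.9 TPM and was called higher, with a log2 ratio of 1.01. Mesothelial genes, of the sheet that lines the body cavity, summed to 84.9 and 264 TPM, with 8 of 8 matched members at 1 TPM or above and Krt19, Upk1b and Upk3b the highest. Krt19, which the general epithelial list also holds, gave 5.58 and 128 TPM of these sums. The part of these cell types in the Aqp1 level was not tested.

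Aqp2, Aqp5 and Aqp6 lie side by side on chromosome 15, on the same strand, within 26423 bases (99579055 to 99605477, mm10), with gaps of 6234 and 6570 bases. Aqp2, the vasopressin-regulated channel of the collecting duct, had 0 counts in library 1 and 16 in library 2 (0.97 TPM). Set against the floor of 3 counts in library 1, the 16 counts gave a 4.08-fold difference on scaled counts. This value leaves out the counting error of library 2 and is not a lower limit. The exact interval of the log2 ratio of Aqp2 had a lower limit of 1.56 and was open upwards (adjusted p = 0.000349 by the exact binomial test). Aqp5, the water channel of salivary and lacrimal glands, had 1 and 27 counts, or 0.04 and 1.48 TPM. Aqp6, an intracellular channel of kidney that is known to pass anions, had 38 and 112 counts, or 1.19 and 4.46 TPM. All 3 neighbours were thus low, and each was higher in library 2 before GC adjustment. The log2 ratio was 3.81 for Aqp5 (1.77 to 9.72, adjusted p = 9.34e-06 by the exact binomial test over all genes) and 1.16 for Aqp6 (0.63 to 1.74, adjusted p = 1.21e-05). GC-adjusted, the log2 ratios were 0.83 for Aqp2, 0.43 for Aqp5 and -0.96 for Aqp6, and none was called. Kidney tubule and collecting duct markers were near 0: none of the 8 reached 1 TPM in both libraries, their level summed to 0.47 and 1.91 TPM, and Avpr2 and Slc12a1 had 0 counts. The highest of them were Scnn1b, Umod and Fxyd4, at up to 0.54 TPM. Of the 7 matched gland markers, 1, Amy1, was at 1 TPM or more (133 and 100.3 TPM; its reads are shared and it is uncertain), and Prol1, Smr3a and Dcpp2 had 0 counts.

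Aqp4 was the only tested member called lower in library 2. It is the water channel of astrocytes and of fast muscle fibres, and lies on chromosome 18. The counts were 61 and 35, or 0.73 and 0.53 TPM, under 1 TPM in both libraries but above the floor of 3 counts, which is 0.0358 and 0.0458 TPM for this gene. Its log2 ratio was -1.18 (-1.83 to -0.57, adjusted p = 0.000167 by the exact binomial test), where 18.4% of all genes were called lower. The call was lost when GC-adjusted (-0.93) and when counts were scaled to the library totals (-0.74). With the GC content of its counted transcript the ratio was 0.041. Skeletal muscle markers were sparse, with medians of 0.20 and 2.19 TPM, 2 of 8 reaching 1 TPM in both libraries, and Myl1, Acta1 and Mylpf the highest at means of 24.7, 7.14 and 2.17 TPM. Aqp8, a channel of testis, liver and gut that also passes ammonia and peroxide, had 3 and 8 counts, or 0.14 and 0.54 TPM, and the interval of its log2 ratio ran from -1.03 to 3.58. No difference was detectable for Aqp8 at this depth.

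Among the aquaglyceroporins, Aqp9 and Aqp7 were abundant and Aqp3 was not. Aqp9 (ENSMUSG00000032204, chromosome 9, 71110659 to 71168682, mm10, minus strand) was at 41.3 TPM in library 1 (1651 counts) and 59.5 TPM in library 2 (1798 counts), a mean of 50.4 ± 12.9 TPM (SD, n = 2). It was the highest aquaporin of library 1 and the next after Aqp1 in library 2. Aqp7 (ENSMUSG00000028427, chromosome 4, 41033074 to 41048139, mm10, minus strand) was at 26.4 TPM (906 counts) and 34.7 TPM (1083 counts), a mean of 30.6 ± 5.91 TPM. In TPM, both genes therefore varied far less between the libraries than Aqp1. GC-adjusted, the log2 ratios were of like size, at -0.23 for Aqp9, -0.18 for Aqp7 and 0.26 for Aqp1. Aqp3, the glycerol channel of basal epithelial cells and skin, lies 44582 bases from Aqp7 on chromosome 4 and had 1 count in each library, under the floor of 3 counts, so no ratio is given.

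Scaled counts gave log2 ratios near 0 for both abundant aquaglyceroporins. The value for Aqp9 was -0.26 (-0.36 to -0.17, adjusted p = 1.64e-07 by the exact binomial test), a difference smaller than 2-fold, and that for Aqp7 was -0.13 (-0.26 to -0.00, adjusted p = 0.0617). Scaling to total counts instead moved the ratio of every gene by 0.44 and turned both to positive values, 0.17 for Aqp9 and 0.31 for Aqp7. The direction for these genes thus depends on the scaling.

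Duct markers stood beside Aqp9 and the lack of Aqp3. Genes of epididymal principal cells summed to 51445 and 58519 TPM, led by Gpx5, Spag11b and Crisp1, and 2 of 12 were called higher in library 2 and 3 lower, against 30.1% and 18.4% of all genes. GC-adjusted, 1 was called higher and 0 lower, against 11.2% and 9.98% of all genes. Basal cell markers, the cells in which Aqp3 is known, had medians of 0.94 and 11.6 TPM, with Itga6 (which shares reads), Krt5 and Trp63 the highest at means of 51.9, 17.7 and 15.3 TPM. General epithelial genes summed to 186 and 1188 TPM, with 9 of 10 reaching 1 TPM in both libraries, and Krt18, Epcam and Krt8 the highest. Hepatocyte markers, of the other cell known for Aqp9, were low apart from Cyp2e1, which was at 875 and 970.4 TPM; Fga and Alb followed at means of 7.41 and 2.68 TPM, and Fgb had 0 and 3 counts. Neutrophil and macrophage genes summed to 238 and 656 TPM, led by Lyz2 (shared reads), C1qa and Mpeg1, while the neutrophil genes S100a8 and S100a9 were at 3.21 TPM or less. The part of each cell type in the level of Aqp9 was not tested.

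Water follows salt across the duct wall, and 12 of 14 genes of ion and water handling reached 1 TPM in both libraries. Among them, the carbonic anhydrase gene Car4 was at 43.4 and 104 TPM and the sodium pump gene Atp1b1 at 71.9 and 74.2 TPM. The chloride channel gene Cftr was at 10 and 7.65 TPM. Of the 14, 6 were called higher in library 2 and 2, Cftr and the cotransporter Slc12a2, lower, where all genes had 30.1% and 18.4%. GC-adjusted, 1 was called in each direction, and Cftr (0.20) and Slc12a2 (0.041) lost both the call and the sign. Genes of cell volume control, 11 of 12 reaching 1 TPM in both libraries, were led by the kinase gene Wnk1 at 196 and 131 TPM, followed by Stk39 and Nfat5. Of the 12, 3 were called higher and 2 lower, beside 30.1% and 18.4% over all genes, and 2 and 0 when GC-adjusted. Proton-secreting clear cell genes summed to 128 TPM in each library, with Atp6v0d2, Foxi1 and Car12 the highest. Of its 7 tested genes, 1 was called in each direction, and 2 higher and 0 lower when GC-adjusted. The GC-adjusted shares over all genes, for each of these lists, were 11.2% and 9.98%.

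Aqp11, a channel of intracellular membranes with a divergent pore motif, was the next member in abundance. Aqp11 (ENSMUSG00000042797, chromosome 7, 97724006 to 97738289, mm10, minus strand) was at 5.62 TPM (109 counts) and 16.7 TPM (255 counts), a mean of 11.2 ± 7.86 TPM (SD, n = 2). Library 2 was higher, and the counting intervals of 4.61 to 6.77 and 14.8 to 18.9 TPM did not overlap. The log2 ratio of 0.84 (0.51 to 1.18, adjusted p = 3.67e-07 by the exact binomial test) stayed under 2-fold. It reached 1.27 and was called when counts were scaled to the library totals. Aqp7, Aqp8 and Aqp11 are also known from testis, and male germ cell genes were present, with 9 of 10 reaching 1 TPM in both libraries, sums of 304 and 1486 TPM, and Prm2, Prm1 and Smcp the highest. The part of germ cells in these levels was not tested.

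Most of the RNA assigned to Aqp7 came from a different annotated form in each library. Aqp7-201 took 11.2% of the gene's TPM in library 1 and 96.5% in library 2, with 118 and 1051 expected counts. Aqp7-202 took 88.8% and 3.52%, with 788 and 32.2 expected counts. The shares of both forms therefore changed places between 2 libraries of the same biosample, while the level of the whole gene differed by 1.32-fold in TPM. The bounds deposited by the authors, whose level is not given in the sources used here, were 1.59 to 4.55 TPM and 27.97 to 33.1 TPM for Aqp7-201. For Aqp7-202 they were 19.7 to 24.2 TPM and 0.201 to 4.05 TPM. Neither pair of intervals overlapped. The short non-coding forms Aqp7-203 and Aqp7-204 had 0 expected counts in both libraries.

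Both forms encode the same protein-coding stretch of 909 bases, and they differ only in the untranslated RNA ahead of it. Aqp7-201 begins 2691 bases upstream of Aqp7-202 and has 8 exons, against 6. It carries 406 bases of its own at the 5′ end, with 55.9% GC, while Aqp7-202 has 33 bases of its own, with 42.4% GC. The remaining 2121 bases, with 48.5% GC, are common to both, so reads there cannot be told apart and the split rests on reads that reach the 5′ end. The line that follows shows, for Aqp7-201, 15 bases on each side of the point where its own 5′ part joins the common part, on the minus strand of chromosome 4 in the GENCODE M21 transcripts, with the form's own bases in capitals.
Aqp7-201: AGCCAGAAGTCAAGGcttggtctgctgctt

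**Figure D2:**
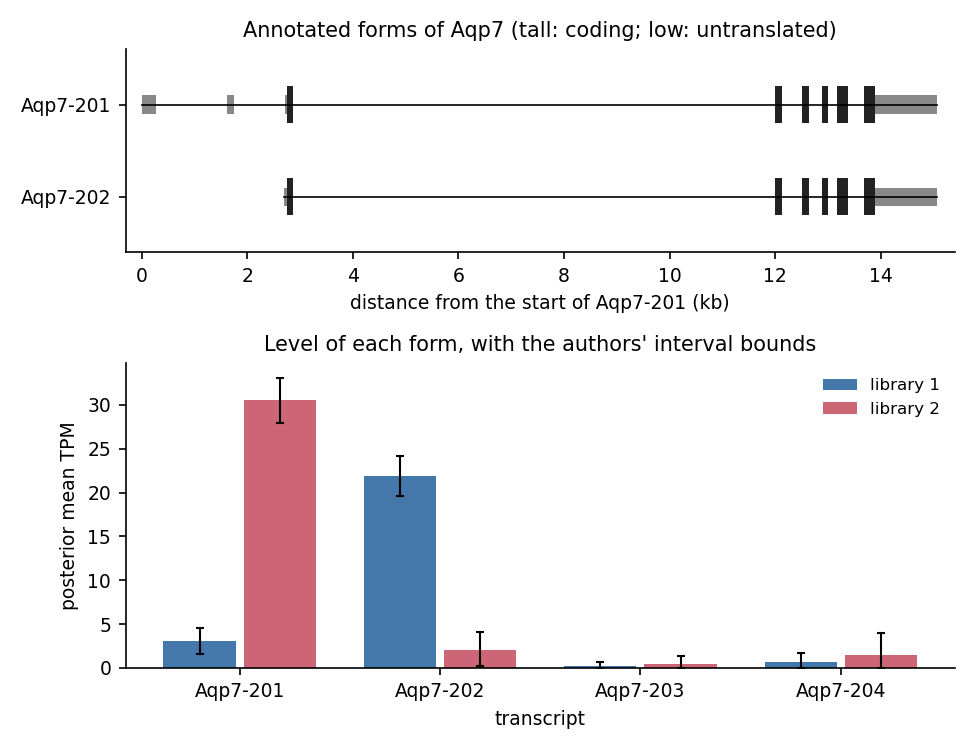
Top, exons of Aqp7-201 and Aqp7-202 by distance from the start of Aqp7-201 in kb, with coding parts tall and untranslated parts low. Bottom, posterior mean TPM of the 4 annotated forms in each library with the bounds the authors deposited: Aqp7-201 is the tall bar of library 2 and Aqp7-202 that of library 1.

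Such exchanges were found in other genes as well. Among 7275 genes with several annotated transcripts and at least 100 counts in each library, the transcript with the largest share differed between the libraries in 30.1%. In 1.44% of them (105 genes, Aqp7 included) the leading transcript differed and held 80% or more of the gene's TPM in each library. The largest shift of any Aqp7 form, 85.3 percentage points, exceeded that of 98.3% of these genes, whose median was 18.4 points. In 98 of the 105 genes the form leading in library 2 was the longer one, and in 85 of the 103 with a sequence for both forms it had the higher GC content. Aqp7 was among both, with 2527 against 2154 bases and 49.7% against 48.4% GC. The part of length, GC content or 5′ coverage in the Aqp7 shares was not tested. Since a gene's length is averaged over its forms, the length used for Aqp7 was 2196 bases in library 1 and 2514 in library 2, which enters its TPM.

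Aqp9 kept its leading form. Aqp9-202, a coding form of 2646 bases, took 89.7% of the gene's TPM in library 1 and 88.4% in library 2. Of 10 annotated Aqp9 transcripts, 6 had expected counts above 0 in library 1 and 8 in library 2. The largest shift of any Aqp9 form was 4.4 percentage points, more than in 19.5% of the compared genes. Aqp9-203, a coding form with a more distant start, took 4.39% and 1.77%, and Aqp9-209, annotated as subject to nonsense-mediated decay, 0.87% and 1.25%. Aqp1, Aqp2, Aqp4, Aqp6 and Aqp11 had 1 transcript each in these tables, and Aqp3, Aqp5 and Aqp8 had 2 each with at most 27 counts in a library.

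Genes of glycerol and triglyceride handling, the reactions that feed or use the glycerol that Aqp7 carries, were all detected. All 18 reached 1 TPM in both libraries, with medians of 21.1 and 163 TPM. On scaled counts 11 were called higher in library 2 and 2 lower, with a median log2 ratio of 1.63, against 30.1% and 18.4% of all 18275 genes tested and a median of 0.02 over them. Among the lipases and their regulators, Pnpla2, which removes the first fatty acid of triglyceride, was at 89.6 and 795 TPM, and Lipe, the hormone-sensitive lipase, at 8.66 and 360 TPM. Mgll, which frees the glycerol itself, was at 39.9 and 288 TPM. The Pnpla2 inhibitor gene G0s2 was at 4.7 and 189 TPM, the droplet coat genes Plin1 and Cidec at 2.23 and 349 TPM and at 148 and 954 TPM, and all 6 of these were called higher. The Pnpla2 coactivator gene Abhd5 was at 61.9 and 66.3 TPM and was not called. Lpl, the lipase of the vessel wall, was at 1690 and 1422 TPM and was called lower.

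Glycerol kinase and the synthesis enzymes differed among themselves before GC adjustment. Gk, which phosphorylates glycerol, was at 80.8 and 63.6 TPM and was called lower, with a log2 ratio of -1.14, and its testis paralog Gk2 at 5.63 and 8.71 TPM was not called. The glycerol-3-phosphate dehydrogenase gene Gpd1 was at 7.43 and 137 TPM and was called higher, while Gpd1l (16.8 and 21.9 TPM) and the mitochondrial Gpd2 (13.3 and 19.05 TPM) were not called. Of the acyltransferase genes, Agpat2 (11.9 and 132 TPM), Dgat1 (25.4 and 93.6 TPM) and Dgat2 (31.2 and 339 TPM) were called higher, and Gpam (16.6 and 54.4 TPM) was not. Pck1, the entry enzyme of glyceride-glycerol synthesis, was at 122 and 476 TPM and was called higher. Aqp7 itself, at 26.4 and 34.7 TPM, was not called. After removal of the GC trend described below, the list median was 0.19. Of the 18 genes, 4 were then called higher (Pnpla2, Lipe, Plin1 and G0s2) and 1 lower (Gpd1l, at -1.30). Over all genes the GC-adjusted shares were 11.2% and 9.98%. The calls of Mgll, Cidec, Lpl, Gk, Gpd1, Agpat2, Dgat1, Dgat2 and Pck1 were lost. Among these, the sign turned for Gk (0.17), Dgat1 (-0.39), Mgll (-0.10) and Pck1 (-0.04).

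**Figure D3:**
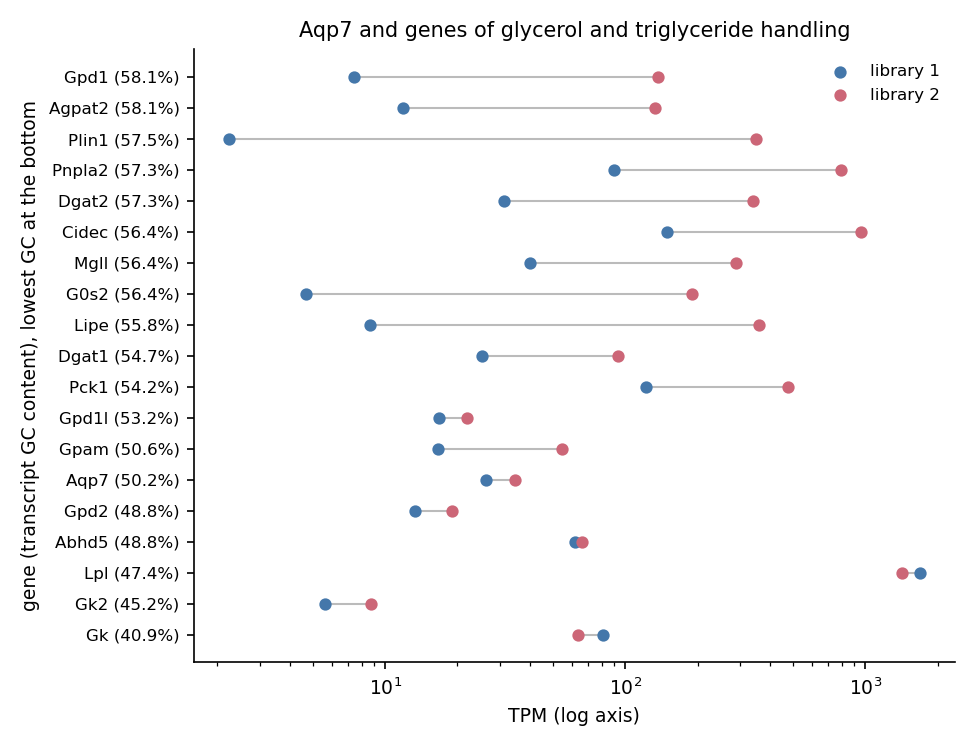
TPM (log axis) of Aqp7 and 18 genes of glycerol and triglyceride handling, 1 point per library, joined by a line and ordered by GC content of the transcript. Plin1 shows the widest gap, from 2.23 to 349 TPM. Gk and Lpl are lower in library 2, whereas Gk2, between them in GC content, is higher (5.63 and 8.71 TPM).

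Of the 9 aquaporins with at least 10 counts in sum, 4 were called higher in library 2 (Aqp1, Aqp2, Aqp5 and Aqp6), 1 lower (Aqp4) and 4 in neither direction. Over all genes tested, 30.1% were called higher and 18.4% lower, so the members' counts are to be read against a background in which 48.5% of genes were called. The median log2 ratio was 0.89 over the 9 members and 0.02 over all genes. Aqp3 did not reach the minimum count. The exact binomial test covers counting error between 2 libraries and has no replicate check.

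The ratio was graded with GC content among the members as among all genes. Mean transcript GC was 63.2% for Aqp2, 60.2% for Aqp5, 56.2% for Aqp6 and 54.9% for Aqp1, the 4 called higher. It was 52.9% for Aqp8, 50.2% for Aqp7, 49.8% for Aqp9, 49.3% for Aqp11 and 49.2% for Aqp4. Genes of like GC content had median log2 ratios of 3.83 for the group of Aqp2, 3.36 for that of Aqp5, 2.19 for that of Aqp6 and 1.49 for that of Aqp1. In the groups of Aqp7 and Aqp9 the medians were 0.03 and -0.08. Of the 9 members, 6 lay within the 25th to 75th percentile of their GC group, while Aqp11 lay above it and Aqp6 and Aqp4 below. This placement rests on the mean GC content of all annotated transcripts. At the annotated GC content of the counted form, 41.4% for Aqp4 and 52.0% for Aqp11, both ratios fell within the 25th to 75th percentile of genes of like GC content. For Aqp6, at 56.1%, the ratio of 1.16 lay at the lower edge of that range (25th percentile 1.13).

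With that trend removed, Aqp11 alone was called higher, at 1.05 (adjusted p = 2.04e-10 by the exact binomial test), and no member was called lower. Over all genes 11.2% were then called higher and 9.98% lower. The ratio of Aqp1 became 0.26, of Aqp2 0.83, of Aqp5 0.43 and of Aqp7 -0.18, and that of Aqp6 turned to -0.96. Aqp4 went to -0.93, or to 0.041 with the GC content of its counted transcript, 41.4%. The deposited Aqp11 transcript is 1322 bases long and its counterpart in the annotation used for GC content 896, so the value for Aqp11 rests on a mismatched sequence; with the GC content of that counterpart the ratio was 0.24 and was not called.

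**Figure D4:**
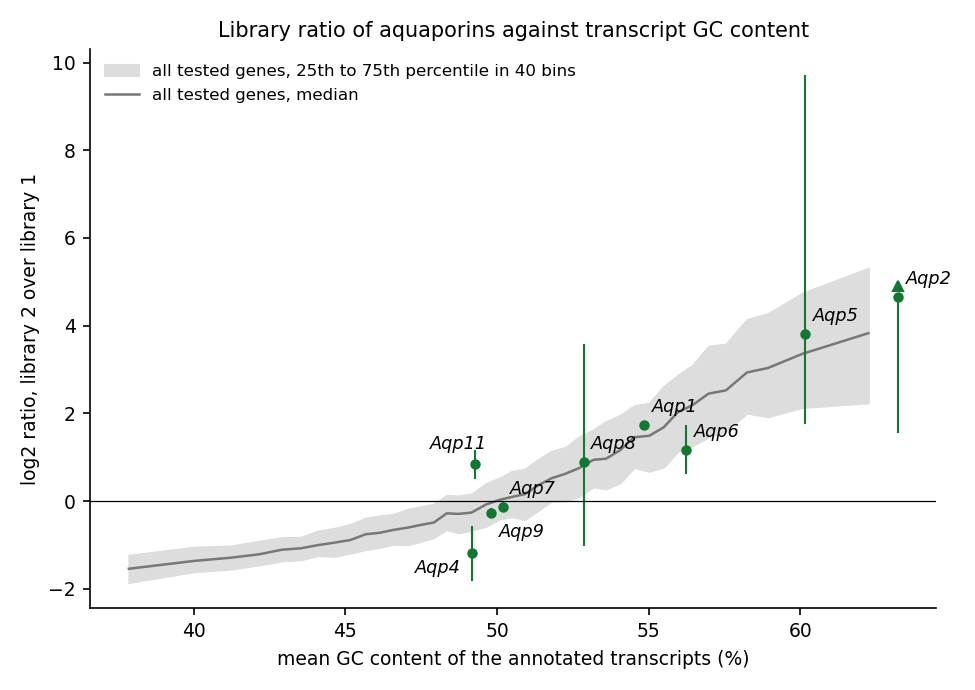
Log2 ratio of library 2 over library 1 against mean transcript GC content for the 9 tested aquaporins (points, 95% exact intervals; the arrowhead on Aqp2 marks an interval open upwards). The line and band give the median and the 25th to 75th percentile of all tested genes in 40 bins. At this mean GC content Aqp11 lies above the band and Aqp4 and Aqp6 below it. At the GC content of the counted form, Aqp4 and Aqp11 would lie within the band and Aqp6 at its lower edge.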

How the data were processed

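Expected counts, which are estimates, TPM and FPKM per gene and per transcript, and the percent of a gene's TPM held by each transcript, were deposited by the authors for 2 technical libraries of 1 biosample, per the file headers. Bounds of TPM, handled as a signal, were deposited by the authors as well. Build mm10 and annotation M4 are named in a text file supplied with them. Neither an aligner nor a quantifier is named (not given in the sources used here). Symbols, coordinates and GC content came from GENCODE M21 of the same assembly (42462 of 43346 identifiers matched) and start windows from RefSeq.

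Expected counts were rounded. Genes with at least 10 counts in sum (18275) were compared between libraries with the two-sided exact binomial test, with library sizes scaled by TMM in edgeR and p-values adjusted by Benjamini-Hochberg over all of them. A call was made at an adjusted p under 0.05 with at least 2-fold change, and 0.5 was added to counts for ratios. With 1 library a side no residual degrees of freedom exist; p-values measure counting error between libraries. All 10 members had whole counts within 0.005, so no reads shared with another gene were seen. Strand use in counting is not given in the sources used here. Genes that overlap Aqp9 and Aqp4 in M21 are missing from the deposited annotation, so Aqp9 and Aqp4 are uncertain there. The GC trend was the median log2 ratio in 40 bins of mean transcript GC (99.3% of tested genes had a value), interpolated.

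The members, the 18 gene lists and the alternatives were chosen with earlier results of these data known. Muc16 and Lacrt had no match. Named genes were all members, Mip and Aqp12, the 3 list members with the highest mean TPM and the glycerol list in full, apart from a few items not reported here; other list genes and the exchange of leading transcripts were chosen after values were seen. No gene was named for likeness of pattern, since 2 libraries give 1 ratio. Smooth muscle and pericyte genes, the list not described elsewhere, had medians of 17.7 and 50.4 TPM, led by Acta2, Rgs5 and Tagln. Of these 8, 5 were called higher and 1 lower (30.1% and 18.4% over all genes). With the GC trend removed, 3 were called higher and 0 lower (11.2% and 9.98% over all genes). The test was tested on simulated data. Alternatives were total counts or DESeq2 size factors for scaling, other limits, filters and pseudocounts, FPKM, posterior means, GC removal, and edgeR at a set dispersion (0.01). Software was Python 3.11.15 with pandas 2.3.3, scipy 1.17.1 and numpy 2.4.6, and R 4.3.3 with DESeq2 1.42.0 and edgeR 4.0.16.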

Additional observations from a re-analysis of the deposited data

How the results depend on the processing

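No paired analysis was possible because the labels hold 1 group. The counts of 4 aquaporins called higher and 1 lower were unchanged with DESeq2 size factors, posterior mean counts, no filter and the edgeR exact test. A minimum of 100 counts left 2 higher and 0 lower, because 4 tested members then drop out. Removal of the GC trend gave 1 higher and 0 lower, and total counts gave 5 higher and 0 lower. Over all genes, GC removal gave 2041 higher and 1824 lower against 5504 and 3361, and total counts gave 6791 higher and 1176 lower. A 1.5-fold limit gave 6498 higher and 5412 lower. The minimum of 100 counts gave 4202 higher and 2763 lower among 13692 genes. Signs turned for Aqp7 (0.31) and Aqp9 (0.17) with total counts and for Aqp6 (-0.96) with the GC trend removed. With the GC content of the leading transcript, Aqp4 (0.041), Aqp5 (-0.37), Aqp6 (-0.95) and Aqp9 (0.27) turned; the cause was not tested. The number of members at 1 TPM or more in both libraries was 5, and 5 to 6 in either library alone, 7 at 0.1 TPM and 4 at 5 TPM. Levels of 7 of 10 members moved by less than 1 SD when TPM was rescaled without mitochondrial genes, and Aqp4, Aqp7 and Aqp9 went to 1.07, 47.9 and 78.1 TPM. Depth limits Aqp2, Aqp3, Aqp5 and Aqp8, each with at most 27 counts in a library.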
